A study of Mus musculus with 4 samples.

Results

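In tissue stripped from the outside of the mouse femoral artery, mainly perivascular adipose tissue (PVAT), 8 genes of the NADPH oxidase system were followed. They were chosen by symbol as *Cyba*, *Cybb*, *Ncf1*, *Ncf4*, *Rac2*, *Nox4*, *Fgr* and *Vav1*, and all 8 were found among the 12661 genes of the deposited table. RNA was taken from wild type C57BL/6 female mice, 11 weeks old and ovariectomized in both groups, 48 h after a wire of 0.38 mm was passed into the femoral artery (injury, 2 libraries) or after sham operation (2 libraries). Nothing in the labels says how many mice gave each library, so p-values measure the spread between these libraries. The deposited values are signed and log-like. They are centred gene by gene, with a log base and a reference set that are not given in the sources used here. Differences are therefore in deposited units, no fold change is given, and the level of one gene cannot be compared with that of another. Read depth per library is unknown, because the table holds no counts.

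The phagocyte NADPH oxidase makes superoxide, which macrophages and neutrophils use against microbes and as a signal. Its membrane core is the catalytic subunit NOX2, encoded by *Cybb*, bound to p22phox, encoded by *Cyba*. In resting cells p47phox (*Ncf1*) and p40phox (*Ncf4*) wait in the cytosol, and on stimulation they join the core together with the GTPase Rac2. Vav1 is an exchange factor that loads Rac with GTP, and Fgr is a Src family kinase of myeloid cells that acts below integrins and Fc receptors. NOX4, the remaining member, is not a phagocyte subunit. It also binds p22phox but is active without the cytosolic subunits and without Rac, and releases mainly hydrogen peroxide. Among other sites it is known from the kidney and from smooth muscle, endothelium and fibroblasts of the vessel wall. By their known roles, 7 of the 8 genes thus belong to the phagocyte oxidase and its control.

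In injured PVAT, 7 of the 8 genes rose, by 1.49 to 2.27 deposited units, with adjusted p-values of 0.0285 to 0.0441 from limma with Benjamini-Hochberg adjustment over the whole table. Of all genes tested, 3.76% were called higher by the same rule and 7.43% were called in either direction. The remaining gene, *Nox4*, had a difference of -0.92 that did not pass the threshold of 0.05 (adjusted p = 0.116), and 3.67% of all genes were called lower. The members had been chosen with earlier results of these data known. All 8 members had an unadjusted p-value under 0.05, against 29.5% of all genes. In the 7 raised genes the lower injury value exceeded the higher sham value, which was so for 31.6% of all genes. More leukocytes in the tissue and more RNA of these genes per leukocyte cannot be told apart in bulk RNA.

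The sequences just before the transcription start were examined because the 7 genes rose together and *Nox4* did not. RefSeq promoter windows were found for 6 of the 8 members, *Cyba*, *Cybb*, *Fgr*, *Ncf1*, *Nox4* and *Vav1*, and their 250 bases before the start were each placed on mm9 by a single exact match. These 250 bases were searched on both strands for GAGGAAG, a core bound by ETS factors such as PU.1, and for TGANTCA. The latter is the AP-1 motif with any middle base allowed, in place of the usual C or G. GAGGAAG occurred in 1 of the 6, *Vav1*, and in 10.6% of 32851 windows of the RefSeq table. TGANTCA occurred in 1 of the 6, *Cybb*, as TGAATCA, and in 6.75% of those windows. The windows of the 2 genes with a match and that of *Nox4*, the member outside the common rise, are shown with matches in capitals, each ending 1 base before a transcript start of the mm9 annotation and overlapping no annotated exon. They lie on mm9 at chrX:9046451-9046700 (minus strand) for *Cybb*, chr17:57418273-57418522 (plus strand) for *Vav1* and chr7:94394909-94395158 (plus strand) for *Nox4*. The windows of *Cybb* and *Nox4* lie inside the annotated gene spans given below, downstream of the outermost annotated start.
Cybb: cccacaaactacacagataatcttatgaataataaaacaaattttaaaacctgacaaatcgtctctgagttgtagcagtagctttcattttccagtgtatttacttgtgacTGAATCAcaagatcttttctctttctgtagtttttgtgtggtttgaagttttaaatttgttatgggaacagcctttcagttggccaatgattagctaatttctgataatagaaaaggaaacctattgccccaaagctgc
Vav1: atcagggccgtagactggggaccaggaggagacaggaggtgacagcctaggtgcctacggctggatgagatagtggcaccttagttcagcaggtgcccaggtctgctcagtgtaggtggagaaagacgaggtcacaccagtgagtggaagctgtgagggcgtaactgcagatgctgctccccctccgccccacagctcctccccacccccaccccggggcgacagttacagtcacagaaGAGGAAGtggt
Nox4: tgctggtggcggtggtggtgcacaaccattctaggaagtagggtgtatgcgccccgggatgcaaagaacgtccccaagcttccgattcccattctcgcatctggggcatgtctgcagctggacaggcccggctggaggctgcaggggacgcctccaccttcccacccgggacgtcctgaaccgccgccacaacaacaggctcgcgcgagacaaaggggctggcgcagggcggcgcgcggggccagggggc
The TGAATCA of *Cybb*, whose middle A is not the usual AP-1 base, lies 139 to 133 bases before that transcript start. The ETS letters of *Vav1* lie 11 to 5 bases before its start. GC content was 34% in the *Cybb* window, 60.8% in that of *Vav1* and 67.2% in that of *Nox4*. Such matches are descriptions of sequence and not binding sites.

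The membrane core was higher after injury in both of its genes. *Cybb* (ENSMUSG00000015340, chrX:9012378-9064897, minus strand), the electron-transferring subunit, was at -1.36 and -1.05 in the sham libraries and at 1.06 and 0.36 in the injury libraries. The groups were well apart, and the lower injury library exceeded the higher sham library by 1.41. *Cybb* thus rose by 1.92 deposited units, with a standard error of 0.27 (limma adjusted p = 0.0291). *Cyba* (ENSMUSG00000006519, chr8:124948672-124956840, minus strand), the partner shared by NOX2 and NOX4, was at -1.04 and -1.07 after sham operation and at 0.83 and 0.43 after injury. Its sham libraries differed by 0.02. The rise was 1.69 with a standard error of 0.18 (limma adjusted p = 0.0285).

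The cytosolic organizer genes rose as well. *Ncf1* (ENSMUSG00000015950, chr5:134695923-134705495, minus strand), whose product carries the cytosolic subunits to the membrane, was at -1.31 and -1.32 after sham operation and at 0.64 and 0.39 after injury. It had the closest replicates of the 8 genes in both groups, and the difference of 1.83 had the smallest standard error among them (0.15, adjusted p = 0.0285 from limma). The annotated exons of *Ncf1* share 361 bases with those of *Gtf2ird2* on the opposite strand, and whether the counting used strand is not given in the sources used here. *Gtf2ird2* itself was at -0.62 and -0.11 after sham operation and at 0.22 and 0.16 after injury, a difference of 0.56 (adjusted p = 0.144 from limma). *Ncf4* (ENSMUSG00000071715, chr15:78075231-78093010, plus strand), whose product binds a phosphoinositide of phagosome membranes, was at -1.12 and -1.38 after sham operation and at 0.91 and -0.03 after injury. Its injury libraries differed by 0.94, nearly as much as the gap of 1.09 between the groups. The rise of 1.69 had a standard error of 0.32, the largest among the raised genes (limma adjusted p = 0.0441).

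The GTPase and signalling genes included both the lowest and the highest of the raised differences. *Rac2* (ENSMUSG00000033220, chr15:78389599-78403213, minus strand), the Rac of blood cells, was at -1.004 and -1.05 after sham operation and at 0.80 and 0.13 after injury. The groups did not overlap, and *Rac2* rose by 1.49 with a standard error of 0.24 (limma adjusted p = 0.0327). *Vav1* (ENSMUSG00000034116, chr17:57418523-57468659, plus strand) was at -1.65 and -1.47 after sham operation and at 1.08 and 0.33 after injury. The distance of 1.80 between its groups was the widest of the 8 genes, and it rose by 2.27 with a standard error of 0.27 (limma adjusted p = 0.0285). *Fgr* (ENSMUSG00000028874, chr4:132530010-132557825, plus strand) was at -1.26 and -1.21 after sham operation and at 1.20 and 0.46 after injury. Its injury libraries were again unequal, with replicate 1 higher by 0.74, and the rise was 2.07 with a standard error of 0.26 (limma adjusted p = 0.0285).

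*Nox4* (ENSMUSG00000030562, chr7:94394606-94547220, plus strand), the member outside the phagocyte oxidase, was not called. It was at 0.24 and -0.06 in the sham libraries and at -1.25 and -0.42 in the injury libraries. Both injury libraries lay below both sham libraries, as in 30.3% of all genes, but the gap between the groups was 0.35 and the gap between the injury libraries 0.84. The difference of -0.92 (standard error 0.30, 95% interval -1.67 to -0.18) had an unadjusted p-value of 0.024 and an adjusted p-value of 0.116 from limma. Single libraries set its size. Leaving out injury replicate 1 gave a difference of -0.51, and leaving out injury replicate 2 gave -1.34. In the latter fit, where the lone injury library is assumed to vary like the sham libraries, *Nox4* passed the threshold (adjusted p = 0.0169 from limma).

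**Figure D1:**
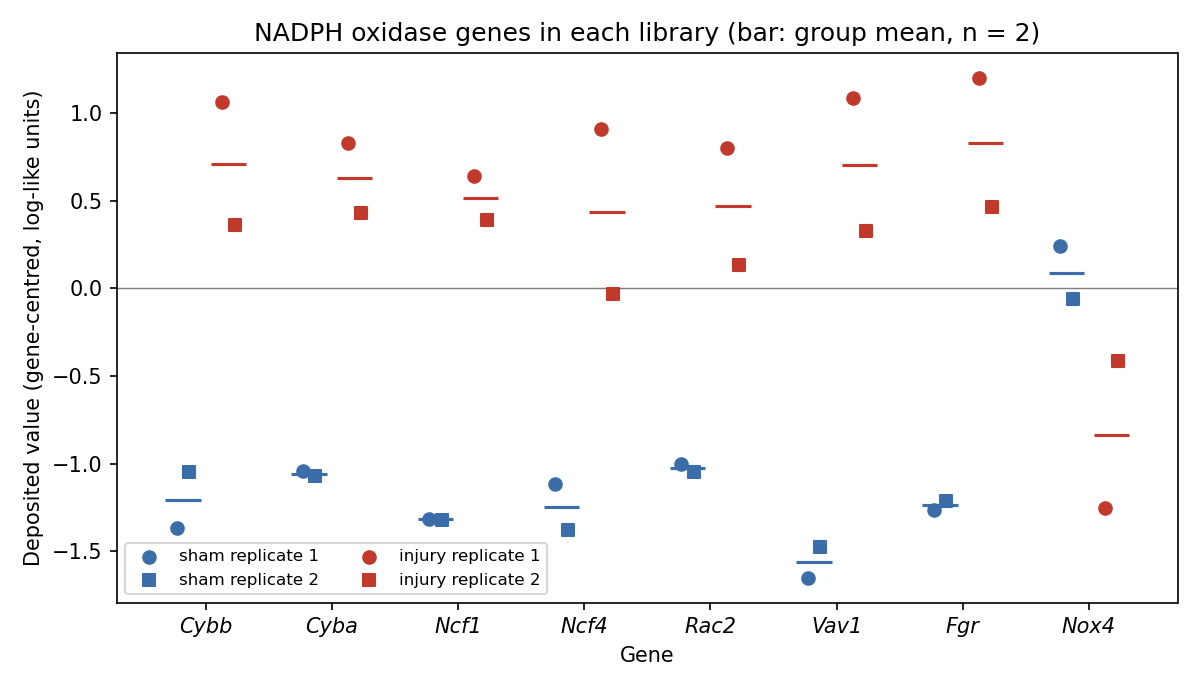
Deposited value (gene-centred, log-like units) of each of the 8 genes in each library, with circles for replicate 1, squares for replicate 2 and a bar at each group mean (n = 2). The 7 phagocyte genes sit between -1.65 and -1.004 in the sham libraries and between -0.03 and 1.20 in the injury libraries, while *Nox4* is lower in both injury libraries.

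Across the 7 raised genes, injury replicate 1 was higher than injury replicate 2 in all 7, by 0.25 for *Ncf1* to 0.94 for *Ncf4* and a median of 0.70. Over the whole table, 48.9% of genes were higher in injury replicate 1, so no such order was seen across the table. Between the sham libraries no member differed by more than 0.31. *Nox4* was again the exception, with the value of injury replicate 1 below that of replicate 2 by 0.84. For all 8 genes the library with the more extreme value after injury was therefore replicate 1.

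Ranked by difference, the genes ran from *Vav1* (2.27), *Fgr* (2.07), *Cybb* (1.92), *Ncf1* (1.83), *Cyba* (1.69), *Ncf4* (1.69) and *Rac2* (1.49) to *Nox4* (-0.92). Among the 7 raised genes no neighbours in this order differed beyond their spread. The closest to it were *Vav1* and *Fgr*, whose differences stood 0.20 apart, with a 95% interval of -0.07 to 0.47 from the within-library values on 2 residual degrees of freedom. *Cyba* and *Ncf4* differed by 0.0018, with an interval of -1.26 to 1.27. *Rac2* and *Nox4* stood 2.42 apart with an interval of -0.87 to 5.71, which also includes 0. Within each library, *Rac2* minus *Nox4* was -1.24 and -0.99 after sham operation and 2.06 and 0.55 after injury. With 2 libraries per group, an exact permutation test of a single value cannot go below p = 0.333.

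**Figure D2:**
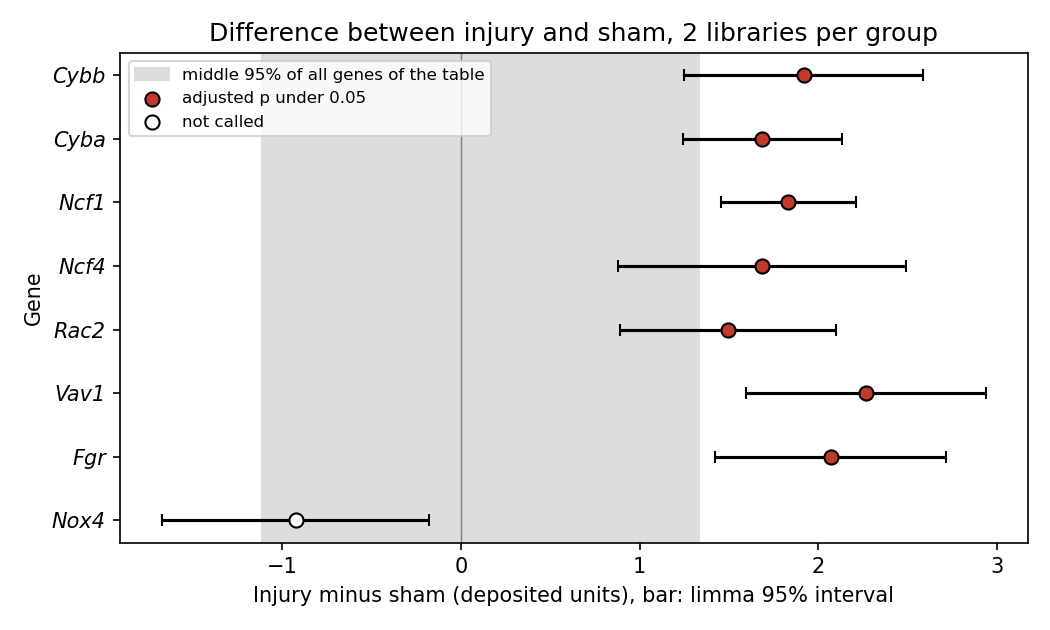
Difference between injury and sham in deposited units for each gene, with limma 95% intervals, filled where the adjusted p-value was under 0.05. The grey band spans the middle 95% of all genes tested, from -1.11 to 1.33. The 7 raised genes lie above the band, *Rac2* at 1.49 being nearest to it, and *Nox4* at -0.92 lies within it.

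The raised genes are known from leukocytes, so each was set against 12 genes of leukocytes in general (*Ptprc*, *Coro1a*, *Laptm5*, *Cd53* and others). All 12 of these were higher in both injury libraries (31.6% of all genes), and 8 were called higher (3.76% of all genes). Their differences had a median of 1.63 and ran from 0.78 to 2.09. Their mean level per library was -1.07 and -1.16 after sham operation and 0.81 and 0.08 after injury. *Ptprc*, the common leukocyte antigen CD45, differed by 1.56 and was not called (adjusted p = 0.0615 from limma). The median of the list in each library was then subtracted from each member. So expressed, *Rac2* differed by -0.06 between the groups, *Ncf4* by 0.14, *Cyba* by 0.14 and *Ncf1* by 0.28, each less than the largest SD between its replicates. *Cybb* was at -0.21 and -0.01 after sham operation and at 0.22 and 0.30 after injury, a difference of 0.37. For *Fgr* the relative values were -0.10 and -0.17 after sham operation and 0.36 and 0.40 after injury, a difference of 0.52. *Vav1* was at -0.49 and -0.43 after sham operation and at 0.25 and 0.27 after injury, a difference of 0.72. In these last 3 genes the groups did not overlap, and the injury libraries were closer to each other than on the original scale. The share of all genes whose groups were apart after this subtraction was not computed. Before subtraction the highest of the 12 reference genes differed by 2.09, against 2.27 for *Vav1*, 2.07 for *Fgr* and 1.92 for *Cybb*. *Nox4* differed by -2.47 on this scale. The values with *Ptprc* alone as the reference were 0.71 for *Vav1*, 0.51 for *Fgr* and 0.36 for *Cybb*. These differences were not tested.

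**Figure D3:**
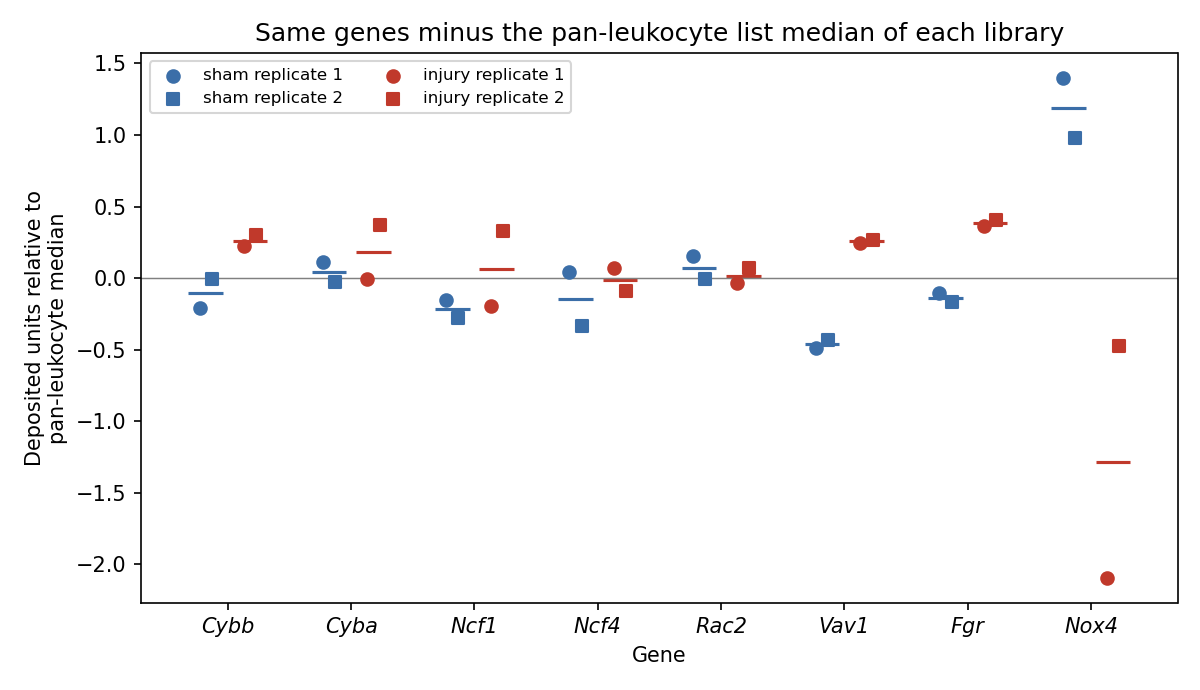
The same genes after subtraction of the median of 12 pan-leukocyte genes in each library, in deposited units, with circles for replicate 1, squares for replicate 2 and bars at group means. The groups overlap for *Cyba*, *Ncf1*, *Ncf4* and *Rac2*, while *Vav1*, *Fgr* and *Cybb* stay higher after injury by 0.72, 0.52 and 0.37.

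The members were next compared with their close relatives. The relatives were chosen after their values were seen, and each pair was compared within libraries with an interval on 2 residual degrees of freedom that is not adjusted over the 13 pairs. Of these 13 intervals, 8 excluded 0, and not all pairs are printed. The ubiquitous *Rac1* had a difference of 0.10 (adjusted p = 0.687 from limma) and *Rac3* of -0.05 (adjusted p = 0.841). *Rac2* minus *Rac1* was -0.86 and -0.87 after sham operation and 0.79 and 0.28 after injury, a change of 1.40 (95% interval 0.31 to 2.49). Against *Rac3* the change was 1.54 (interval -0.04 to 3.13). Of the exchange factors, the more widely expressed *Vav2* had a difference of -0.53 (adjusted p = 0.0746 from limma) and *Vav3* of 0.42 (adjusted p = 0.305). *Vav1* rose by 2.80 more than *Vav2* (interval 0.84 to 4.75) and by 1.85 more than *Vav3* (interval 1.19 to 2.52).

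*Fgr* was set against relatives in the Src family. *Lyn*, of blood cells, and *Lck*, of T cells, had differences of 0.94 (adjusted p = 0.0711 from limma) and 0.59 (adjusted p = 0.256). The broadly expressed *Fyn*, *Yes1* and *Src* had differences of -0.40, -0.43 and -0.75, none of them called (adjusted p = 0.136, 0.150 and 0.0653 from limma). The change of *Fgr* exceeded that of *Src* by 2.82 (interval 1.35 to 4.29), that of *Fyn* by 2.47 (interval 0.97 to 3.97) and that of *Yes1* by 2.49 (interval 0.49 to 4.50). It exceeded that of *Lyn* by 1.13 (interval 0.79 to 1.48) and that of *Lck* by 1.48 (interval 0.99 to 1.97). The inhibitory phosphatase gene *Ptpn6*, listed with this family, rose by 1.80 (adjusted p = 0.0327 from limma). Of the 8 genes of this list in the table, 2 were called higher and none lower, with a median difference of 0.48.

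Among the catalytic NOX genes, *Nox1* was at -0.34 and -0.04 after sham operation and at -0.11 and 0.61 after injury. These groups overlapped (difference 0.44, adjusted p = 0.332 from limma). The change of *Cybb* exceeded that of *Nox1* by 1.47, with an interval of -1.58 to 4.53 that includes 0. *Cybb* minus *Nox4* was -1.60 and -0.99 after sham operation and 2.32 and 0.78 after injury. Their changes stood 2.84 apart, with an interval of -0.73 to 6.41 that includes 0. Of 13 genes listed as other NOX subunits and partners, 7 were in the table, 1 was called higher and none lower, and the median difference was 0.31. *BC017643*, the earlier symbol of *Cybc1*, whose product (EROS) is needed for NOX2 protein to accumulate, was at -0.59 and -0.57 after sham operation and at 0.47 and -0.13 after injury, a difference of 0.75 that was not called (adjusted p = 0.0979 from limma). *Noxred1* had a difference of 0.31 (adjusted p = 0.234). *Nox3*, *Noxa1*, *Duox1*, *Duox2*, *Duoxa1* and *Duoxa2* were not analysed here.

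The genes that act above the oxidase were read from lists by textbook role, of which the 3 genes with the lowest p-value and the 1 with the highest are named. Over 82 pathway genes in the table, 22 were called, all higher, against 3.76% of all genes called higher. The median of all genes tested was a difference of 0.01. Of 21 receptors and receptor adaptors that trigger or control the oxidative burst, 10 were called higher and none lower, with a median difference of 1.62. In both injury libraries 20 lay higher, against 31.6% of all genes. *Fcer1g*, the signalling chain of Fc receptors, rose by 2.18 (standard error 0.21), the inhibitory Fc receptor gene *Fcgr2b* by 1.42 (standard error 0.15) and the complement receptor gene *C5ar1* by 1.93 (standard error 0.21), each with an adjusted p-value of 0.0285 from limma. *Tnfrsf1a*, a receptor of TNF, had a difference of -0.15 (adjusted p = 0.612). Of 20 kinases and adaptors, 7 were called higher and none lower, with a median of 0.82. *Card9*, an adaptor of fungal recognition, rose by 1.60 (adjusted p = 0.0285 from limma), and the phosphoinositide 3-kinase genes *Pik3r5* and *Pik3cd* by 1.58 and 1.60 (adjusted p = 0.0291 for both). *Prkca*, a broadly expressed protein kinase C, had a difference of 0.03 (adjusted p = 0.961).

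Of 16 regulators of Rac in the table, 2 were called higher and none lower, with a median difference of 0.36. An unadjusted limma p-value under 0.05 was found for 9 of them, against 29.5% of all genes. *Dock2*, the exchange factor for Rac in leukocytes, was at -1.02 and -1.18 after sham operation and at 0.80 and 0.07 after injury (difference 1.53, adjusted p = 0.0355 from limma), and *Arhgap25* rose by 1.20 (adjusted p = 0.0370). *Prex1*, another exchange factor of neutrophils, had a difference of 1.20 (adjusted p = 0.0565), and *Arhgdia* of 0.09 (adjusted p = 0.734). Of 10 genes that handle oxidants or ions around the oxidase, none was called by limma, and the median difference was 0.41. An unadjusted p-value under 0.05 was found for 6 of them, against 29.5% of all genes. *Gpx3*, a secreted glutathione peroxidase, had a difference of 0.70 (adjusted p = 0.0546), *Sod2*, the mitochondrial superoxide dismutase, of 0.77 (adjusted p = 0.0750), and *Gpx1* of 0.42 (adjusted p = 0.120). *Clcn3* had a difference of -0.01 (adjusted p = 0.984).

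**Figure D4:**
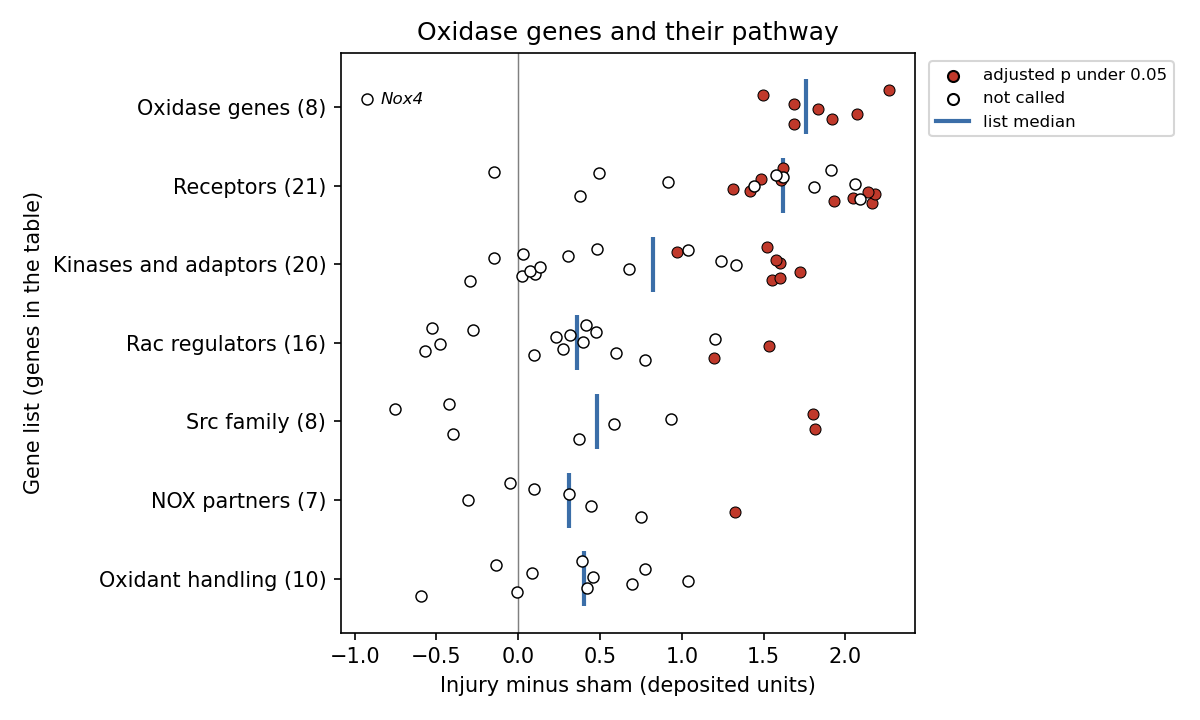
Difference between injury and sham in deposited units for each gene of the oxidase set and of 6 pathway lists, filled where the adjusted p-value was under 0.05, with a bar at each list median. The receptor list (median 1.62) lies close to the oxidase genes, while the lists of Rac regulators (0.36), NOX partners (0.31) and oxidant handling (0.41) have lower medians, above the 0.01 of all genes tested.

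Many macrophage and neutrophil markers moved together with these genes, and their part in the results was not tested. Of 15 macrophage genes, 8 were called higher and none lower, against 3.76% and 3.67% of all genes. Their median difference was 1.33, with mean levels of -0.98 and -1.04 after sham operation and 0.35 and -0.08 after injury. In both injury libraries 13 were higher (31.6% of all genes) and 1 was lower, while 1 overlapped. The lower one, *Cd163*, had a difference of -0.81. *Mertk* overlapped (0.14) and *Mrc1* had a difference of 0.51, and none of these was called. *Csf1r*, the receptor of the macrophage growth factor, rose by 1.33 (adjusted p = 0.0344 from limma), and *Adgre1*, a macrophage surface receptor gene, had a difference of 1.08 (adjusted p = 0.147). Of 12 neutrophil genes, 7 were in the table and all 7 were higher in both injury libraries, against 31.6% of all genes. Of these, 2 were called, the median was 1.86, and the mean levels were -1.25 and -0.91 after sham operation and 1.26 and 0.12 after injury. *S100a8* and *S100a9*, abundant cytosolic proteins of neutrophils, had differences of 1.86 and 1.88 that were not called (adjusted p = 0.0707 and 0.0711 from limma). The gap between the injury libraries seen in the oxidase genes was also present in these lists, with a median of 0.51 over the macrophage genes and 1.38 over the neutrophil genes. Of 12 lymphocyte genes, 5 were in the table and none was called (2 at an unadjusted p-value under 0.05), and of 10 eosinophil and mast cell genes 5 were in the table and none was called (0 at an unadjusted p-value under 0.05).

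Genes of the vessel wall cell types named above for *Nox4*, and of adipocytes, were read beside it. Of 8 smooth muscle genes 7 were in the table, with a median difference of -2.12. All 7 were lower in both injury libraries (30.3% of all genes), and 4 of them were called lower (3.67% of all genes). Their mean levels were 1.59 and 0.88 after sham operation and -1.20 and -0.19 after injury, with injury replicate 1 the lower library as in *Nox4*. *Acta2*, the smooth muscle actin, was at 1.74 and 1.03 after sham operation and at -1.30 and -0.29 after injury (difference -2.18, adjusted p = 0.0397 from limma). Of 10 fibroblast genes, 4 were called lower and none higher, with a median of -0.75, and *Col1a1* fell by 0.78 (adjusted p = 0.0498). Of 8 endothelial genes, 3 were called lower and none higher, with a median of -0.76. In a fit with a block for the replicate number, 0 of the smooth muscle genes, 0 of the fibroblast genes and 2 of the endothelial genes were called. The part of these cells in the values of *Nox4* was not tested. All 9 adipocyte genes listed to check the labelled tissue were in the table, with a median of -0.30. Of these, 5 were lower in both injury libraries, and 1 was called lower, which the block also ended, and none higher. The part of adipocytes in the values of *Nox4* was not tested either. Of 10 skeletal muscle genes 4 were in the table, with a median of -0.75 and none called, and 2 had an unadjusted p-value under 0.05. Of 7 epithelial genes 1 was in the table, at 2.23 and 0.26 after sham operation and 0.24 and -0.83 after injury.

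**Figure D5:**
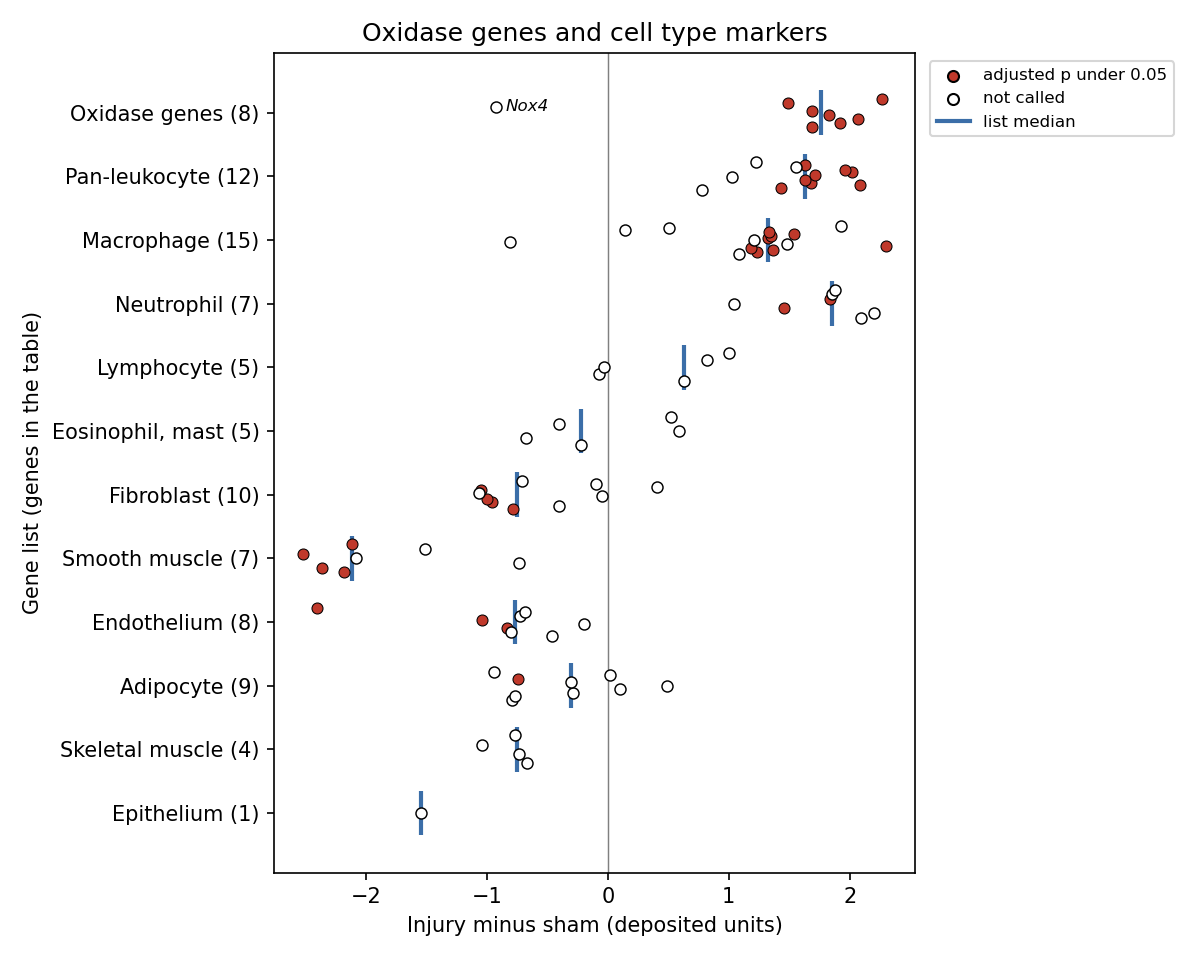
Difference between injury and sham in deposited units for each gene of the oxidase set and of 11 cell type lists, filled where the adjusted p-value was under 0.05, with a bar at each list median. The medians of the pan-leukocyte (1.63), macrophage (1.33) and neutrophil (1.86) lists lie to the right of 0. Those of smooth muscle (-2.12), fibroblast (-0.75), endothelium (-0.76) and adipocyte (-0.30) lie to the left, where *Nox4* also lies.

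For each member the 3 genes of the table with the most similar pattern were found, as the smallest Euclidean distance over the 4 libraries after each gene was centred on its own mean. For *Cybb* these were *Dennd1c*, *Cd300a* and *Rsad2*, at distances of 0.08 to 0.09 deposited units. *Cyba* was nearest to *Alox5ap*, *Rassf5* and *Soat1* (0.07 to 0.08), and *Ncf1* to *Trem2* (0.05), *Rgs1* and *Alox5ap* (0.17 and 0.18). *Ncf4* was nearest to *Basp1*, *Snx20* and *Evi2a* (0.08 to 0.13), and *Rac2* to *Milr1*, *Ikbke* and *Btk* (0.08 to 0.09). *Btk* is a kinase gene of the pathway list above and *Evi2a* one of the pan-leukocyte genes. *Fgr* was nearest to *Clec4a3*, *Cd52* and *Clec4a1* (0.06 to 0.10), of which the *Clec4a* genes belong to a family whose reads the counting could have split, and *Vav1* to *Ctss*, *Cd52* and *Fcer1g* (0.16 to 0.21). *Nox4* was nearest to *Phgdh*, *Casc4* and *Pard3b* (0.09 to 0.11). None of the 3 genes nearest to *Nox4* passed the threshold, with adjusted p-values of 0.0899 to 0.146 from limma and differences of -0.86 to -1.02.

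The calls of the 7 genes rested on both sham libraries. They were kept in all fits to the 4 libraries, including those with quantile normalization and with a block for the replicate number. Without sham replicate 1, limma on 3 libraries called 0 genes of the whole table (1960 at an unadjusted p-value under 0.05) and none of the 8, while 7 of the 8 had an unadjusted p-value under 0.05. Without sham replicate 2 the 7 raised genes lost their calls as well, with differences of 1.47 to 2.36. Without injury replicate 1 *Ncf4* lost its call (difference 1.22, adjusted p = 0.0513 from limma) and the other 6 kept theirs, in a fit that called 181 genes of the table higher and 103 lower. With the replicate block, the 7 genes stayed called, against 3.01% of all genes called higher and 2.39% called lower. At an adjusted p-value under 0.1 they were again the members called, against 9.21% called higher and 9.09% called lower. The differences of the 7 genes stayed between 1.16 and 2.65 whichever library was left out.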

How the data were processed

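Bulk RNA-seq of 4 libraries (2 sham, 2 injury), made from 480 ng of total RNA each with a stranded mRNA kit, was used. Per the labels and the study's methods, the authors used FastQC 0.11.8 for read quality, cutadapt 1.18 and Trimmomatic 0.39 for adaptors and low-quality bases and STAR 2.6.0a for alignment to mm9, ran featureCounts for gene counts and compared groups with DESeq2 1.28.0 in R 3.6.0. The deposited score per gene and library is a signed, gene-centred, log-like value between -2.27 and 6.45, and the step from counts to it is not given in the sources used here. Count models could not be used on such values. A linear model of limma 3.58.1, under R 4.3.3 (lmFit, eBayes, group as the only term, 3.48 prior degrees of freedom), was fitted to all 12661 genes, without a filter, with two-sided p-values, Benjamini-Hochberg adjustment and a threshold of 0.05. Medians of the libraries lay within 0.01 of 0, and SDs were 0.32 (injury replicate 2) to 0.44 (sham replicate 1). The members and lists were chosen with earlier results of these data known. Named were all 8 members, of each pathway list the 3 genes with the lowest p-value and the 1 with the highest, the 3 genes most like each member, and the marker genes *Ptprc*, *Adgre1*, *Csf1r*, *S100a8*, *S100a9*, *Acta2* and *Col1a1*. The macrophage genes *Cd163*, *Mertk* and *Mrc1* were named after their values were seen. Some genes that this rule or these lists include are not reported here, but list counts include them. The family comparisons were added after seeing the data. Gene positions and identifiers are from the GENCODE annotation of NCBIM37 (mm9), and promoter sequences are from the RefSeq table of GRCm38.p6. The fit was tested on simulated data. Alternatives were a replicate block, each library left out, quantile normalization, columns scaled to one spread, robust or trended variance priors, identical rows counted once, an adjusted p-value under 0.1 and a minimum difference of 1 unit. Python 3.11.15, pandas 2.3.3, numpy 2.4.6 and matplotlib 3.10.9 were used.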

Additional observations from a re-analysis of the deposited data

How the results depend on the processing

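With 2 libraries per group and unknown depth, precision rests on the spread between libraries and on limma's sharing of variance. The 7 calls held in all fits to the 4 libraries (adjusted p = 0.0204 to 0.0470 from limma), and no member changed direction under any alternative. The number of genes called was 941, and 861 to 1128 under the other scalings, variance priors and identical rows counted once. The looser threshold of 0.1 gave 2317, with 37 pathway genes in place of 22 and 48 marker genes in place of 30, and with a minimum difference of 1 unit 591, changes that follow from the thresholds. A replicate block gave 684 calls (381 higher, 303 lower) and 7 of the 8 members, so the block changed no call among them. Under it, 0 smooth muscle, 0 fibroblast and 0 adipocyte genes were called, and 2 endothelial genes, 9 receptors and the 1 epithelial gene were. Labels do not say that the numbers pair the libraries, and deviations of same-numbered libraries correlated at -0.094 across genes.

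With each library left out in turn, calls ran from 0 to 8 of the members, from 0 to 45 of the pathway genes, from 0 to 50 of the marker genes and from 0 to 1790 of all genes. Each of these fits leaves 1 library alone in its group, which is assumed to vary like the other group, on 1 residual degree of freedom. Differences ran from 1.49 to 1.89 for *Cyba*, 1.57 to 2.27 for *Cybb*, 1.70 to 1.96 for *Ncf1*, 1.22 to 2.15 for *Ncf4*, 1.16 to 1.83 for *Rac2*, 1.70 to 2.44 for *Fgr*, 1.89 to 2.65 for *Vav1* and -1.34 to -0.51 for *Nox4*. The alternatives that need counts (DESeq2, edgeR, filters on low counts) were not run, for want of count data.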
